A study of Mus musculus with 10 samples.

Results

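The cyclin-dependent kinase (CDK) inhibitor genes were followed as a set of 8 named genes, Cdkn1a, Cdkn1b, Cdkn1c, Cdkn2a, Cdkn2b, Cdkn2c, Cdkn2d and Cdkn3, of 46517 genes in each count table. The members were chosen by name, and Mki67 of the same library was set beside them as a measure of proliferation. The libraries were made from tumour cells of mouse malignant peripheral nerve sheath tumours (MPNST), soft-tissue cancers that arise from cells around peripheral nerves. There were 5 allograft models, named A to E, and from each came 1 GFP+ library, of cells that express the CGD transgene, and 1 GFP- library, of cells that lack its expression. The labels do not expand CGD, and the promoter that drives it, the tumour genotype, the host strain and whether a model stands for 1 animal are not stated in the labels. The sort removed cells labelled as wild type, and dead cells, before either population was collected. Setting the 2 populations of a model against each other asks how transgene-expressing tumour cells differ from their neighbours.

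CDKs drive the cell cycle when bound to a cyclin, and the inhibitors hold them back in separate ways. The CIP/KIP proteins p21 (Cdkn1a), p27 (Cdkn1b) and p57 (Cdkn1c) bind cyclin-CDK complexes, whereas the INK4 proteins (Cdkn2a to Cdkn2d) bind the kinases Cdk4 and Cdk6 and keep them from D-type cyclins. Cdkn2a also encodes, from a separate first exon and another reading frame, the ARF protein that stabilises p53. The Cdkn2a locus is often lost in human MPNST. Cdkn3 encodes a phosphatase that removes the activating phosphate from CDKs and is itself expressed in dividing cells.

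The start-site regions below belong to Cdkn1a, Cdkn1b, Cdkn2a, Cdkn3 and Mki67. Windows ran from 250 bases before to 50 bases after each start site (RefSeq, GRCm38.p6). They were at hand for 7 of the 8 members, all but Cdkn1c, and for Mki67, 11 windows in all. Cdkn1a and Cdkn1b are shown because their levels lay on opposite sides in every pair of populations. Capitals mark a p53 response element in Cdkn1a, searched by name as a run of 20 bases with at most 1 mismatch outside its fixed C and G bases, and CCAAT boxes on either strand in Cdkn1b. Cdkn1a has windows at the start sites 29090979 and 29093769, and the p53 element was found only in the former. The Cdkn1a stretch is chr17:29090889-29090973 and that of Cdkn1b chr6:134920221-134920400, both on the plus strand.
Cdkn1a: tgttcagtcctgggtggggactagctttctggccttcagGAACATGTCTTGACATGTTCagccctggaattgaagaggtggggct
Cdkn1b: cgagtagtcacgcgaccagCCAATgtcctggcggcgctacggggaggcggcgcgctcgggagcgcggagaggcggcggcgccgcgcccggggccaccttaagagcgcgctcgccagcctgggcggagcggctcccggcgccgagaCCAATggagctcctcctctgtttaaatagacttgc

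Cdkn3 and Mki67 are shown side by side because their differences had the same sign in 4 of 5 pairs. Capitals mark the cell cycle homology region motif TTTGAA and CCAAT boxes, each on either strand, and the motifs do not overlap one another. Whether sign and motif go together was not tested. Cdkn1a also had the sign of Mki67 in 4 of 5 pairs, with neither motif in its windows. Cdkn2b, whose window holds TTTGAA, had it in 1 of 5, as did Cdkn1b, whose window holds CCAAT boxes. Cdkn2a, Cdkn2c and Cdkn2d, each with a CCAAT box in 1 window, had it in 3 of 5. The Cdkn3 stretch is chr14:46760371-46760540 on the plus strand and the Mki67 stretch chr7:135716410-135716579 on the minus strand.
Cdkn3: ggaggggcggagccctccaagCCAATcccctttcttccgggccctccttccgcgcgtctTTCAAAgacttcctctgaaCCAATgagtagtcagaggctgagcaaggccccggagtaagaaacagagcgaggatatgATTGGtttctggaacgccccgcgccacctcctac
Mki67: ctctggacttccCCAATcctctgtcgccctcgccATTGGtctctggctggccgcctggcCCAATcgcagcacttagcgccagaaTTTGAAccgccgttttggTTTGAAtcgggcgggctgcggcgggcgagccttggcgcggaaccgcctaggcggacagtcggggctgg

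Cdkn2a has 2 annotated transcripts with separate start sites, and its count is the sum over both, so the ARF and p16 messages cannot be told apart in these tables. They share 575 exonic bases. The stretch before the ARF start is chr4:89294670-89294769 and that before the p16 start chr4:89282193-89282292, both on the minus strand. Capitals mark the E2F motif TTTCCCGC.
ARF start: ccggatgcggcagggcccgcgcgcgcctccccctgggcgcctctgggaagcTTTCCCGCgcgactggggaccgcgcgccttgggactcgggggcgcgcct
p16 start: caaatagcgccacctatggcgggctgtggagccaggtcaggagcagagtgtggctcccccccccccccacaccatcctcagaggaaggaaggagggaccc

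The p53 element was found in 0.067% of all 32851 windows, TTTGAA in 17.9%, CCAAT in 37.4% and an E2F motif (TTTCCCGC, TTTGGCGC or TTTCGCGC on either strand) in 1.84%. Of the 11 windows, the p53 element was in 1, TTTGAA in 3, CCAAT in 6 and an E2F motif in 1. The p53 match in Cdkn1a was known beforehand, since the allowance of 1 mismatch was set after its sequence was seen. A match describes the letters of the window and is not evidence of binding.

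Reads in genes numbered 15978673 to 22082207 per library, and levels are given as CPM, the counts scaled to a fixed total of these reads. All 8 members and Mki67 passed the filter on low counts. The populations were compared with edgeR's quasi-likelihood test, blocked by tumour model, in which 0 of 13986 genes (0%) fell under an adjusted p of 0.05 after Benjamini-Hochberg correction. Without adjustment, 1257 genes (8.99%) had p under 0.05. DESeq2 called 190 genes, 1.36%. The cells were checked against fixed markers. Fibroblast markers, 8 genes such as Col1a1, had the highest sum of the 6 marker lists, from 18800 to 34800 CPM in GFP+ libraries and from 19600 to 40000 CPM in GFP- libraries. The 14 Schwann lineage markers summed to 83.2 to 460 CPM in GFP+ libraries and 52.0 to 184 CPM in GFP- libraries, with the GFP+ library the higher in 5 of 5 pairs, and S100b did not exceed 2.93 CPM in any library. Leukocyte markers summed to at most 58.6 CPM, with Ptprc at 0.453 CPM or less, and endothelial markers to at most 13.3 CPM. The pair of model D stood apart in Xist, where the GFP+ library had 103 CPM and the GFP- library 2.82 CPM, and results that moved by over 1.5 times without that pair are given below with the value. In RNA from sorted pools, fewer cells of a kind and less RNA per cell cannot be told apart.

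Cdkn1a, which encodes p21 and is the best-known p53 target among cell cycle genes, was higher in GFP+ cells of every model, and Cdkn1b, which encodes p27, was lower in every model. Neither passed the test across all genes. Of the 8 members, Cdkn1a alone had an unadjusted p under 0.05 with a higher level, against a background of 5.5% of all tested genes, and Cdkn1b alone with a lower level, against 3.49%. These 2 were also the only members with 1 direction in 5 of 5 pairs, which 9.77% of all tested genes had. The remaining 6 members had differences within 0.17 on the log2 scale of 0, with standard errors of 0.11 to 0.41, and were not larger than the spread between pairs. The Schwann lineage sum was higher in GFP+ cells of the same 5 models, with 11 of its 12 tested genes higher. Gap43 alone had at least 56.1 CPM in every GFP+ library, beside a sum of 83.2 CPM in GFP+ cells of model A. Sox10 ran from 0.111 to 112 CPM over the GFP+ libraries, so the sum does not show each marker in each model. Of the 8 fibroblast markers 7 were lower (median log2 difference -0.30), and their sum was lower in all models but A. All 3 tested markers of pericytes and smooth muscle were lower. The part of these lists in the Cdkn1a and Cdkn1b values was not tested.

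**Figure D1:**
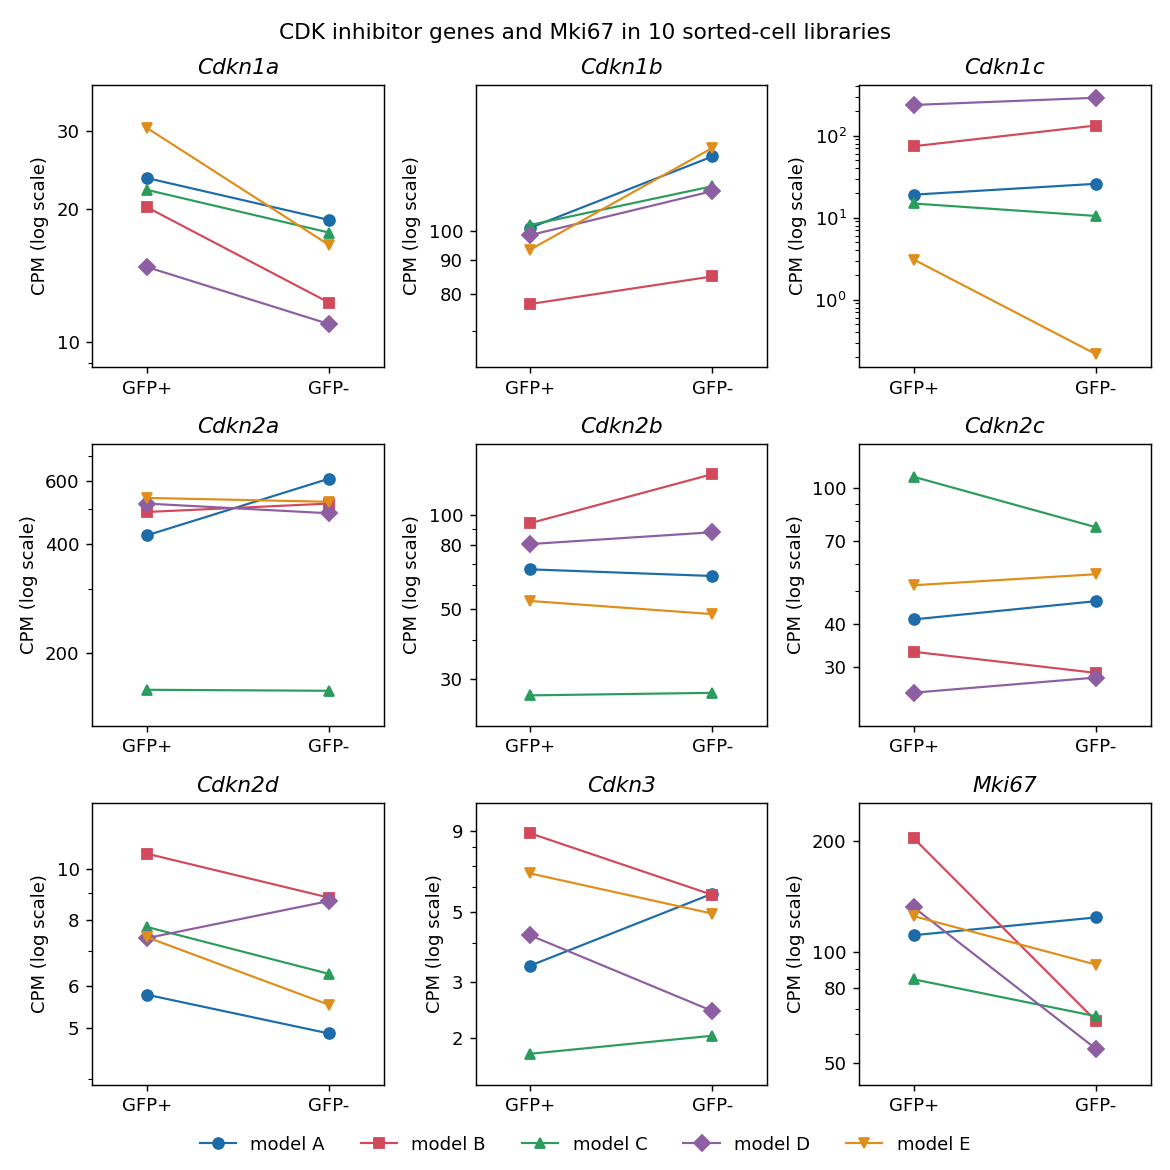
Level of each CDK inhibitor gene and of Mki67 (CPM, log axis) in GFP+ cells (left) and GFP- cells (right), with a line joining the 2 libraries of a tumour model (A to E). Cdkn1a lines lie higher and Cdkn1b lines lower in GFP+ cells in all 5 models, Cdkn1c spans 0.217 to 290 CPM, and model C is the lowest for Cdkn2a and Cdkn2b and the highest for Cdkn2c in both populations.

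Cdkn1a (ENSMUSG00000023067, mm10 chromosome 17, 29090976 to 29100727) stood at 23.5, 20.2, 22.1, 14.8 and 30.5 CPM in GFP+ cells of models A to E, against 18.9, 12.3, 17.7, 11 and 16.6 CPM in GFP- cells. Each GFP+ library lay above its own GFP- partner, but the 2 groups overlapped across models, with GFP+ cells of model D below GFP- cells of A, C and E. Means were 22.2 ± 5.70 CPM for GFP+ and 15.3 ± 3.46 CPM for GFP- libraries (SD, n = 5 per population), and the fitted log2 difference was 0.50 (SE 0.12; unadjusted p = 0.00411, adjusted p = 0.363 by edgeR's quasi-likelihood test). The ratio of GFP+ to GFP- cells lay between 1.24 in model A and 1.83 in model E, and its 95% exact Clopper-Pearson interval lay above 1 in all 5 pairs; such intervals cover counting error only. Without model E the log2 difference was 0.39, and without model D 0.53. A higher GFP+ level in all 5 pairs was found for 5.11% of tested genes.

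Cdkn1b (ENSMUSG00000003031, chromosome 6, 134920401 to 134925513), an inhibitor that accumulates in resting cells, stood at 101, 77.1, 102, 98.4 and 93.5 CPM in GFP+ cells of models A to E, against 130, 85.0, 117, 115 and 134 CPM in GFP- cells. Model B was the lowest in both populations, and its GFP- library was the only one of that group below any GFP+ library. Means were 94.4 ± 10.2 CPM for GFP+ and 116 ± 19.2 CPM for GFP- libraries (SD, n = 5 per population), and the fitted log2 difference was -0.32 (SE 0.08; unadjusted p = 0.0032, adjusted p = 0.363 by edgeR). The counting interval of the ratio lay below 1 in all 5 pairs, with ratios of 0.698 in model E to 0.907 in model B. DESeq2 with the same block called Cdkn1b (adjusted p = 0.0476) and gave Cdkn1a an adjusted p of 0.0812. The other 12 alternatives called neither gene, at adjusted p of 0.217 or more for Cdkn1a and 0.232 or more for Cdkn1b by edgeR or limma. A lower GFP+ level in all 5 pairs was found for 4.66% of tested genes. Without model D, the pair that stood apart in Xist, the Cdkn1b difference was -0.33.

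Because the 2 genes lay on opposite sides, the level of Cdkn1a relative to Cdkn1b was higher in GFP+ cells of every model. It was 0.231, 0.262, 0.218, 0.150 and 0.326 in GFP+ cells of models A to E, against 0.145, 0.144, 0.152, 0.0958 and 0.124 in GFP- cells, as a ratio of CPM. The smallest GFP+ ratio, that of model D, lay just below the largest GFP- ratio, that of model C. The ratio was formed after both differences were known, so it carries no test.

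Cdkn1c, which encodes p57 and is transcribed from the maternal allele of an imprinted domain, differed between models far more than between populations. This gene (ENSMUSG00000037664, chromosome 7, 143458339 to 143461050) stood at 19.1, 74.4, 14.9, 237 and 3.09 CPM in GFP+ cells of models A to E, against 25.9, 133, 10.5, 290 and 0.217 CPM in GFP- cells. The order of the models, D, B, A, C and E from high to low, was the same in both populations. Across populations the direction was mixed: GFP+ cells were lower in A, B and D and higher in C and E, with a log2 difference of -0.04 (SE 0.41; adjusted p = 0.989 by edgeR). The plain mean of the pair differences had the other sign, 0.42, with model E alone at 3.33. In model E the gene had 64 reads in GFP+ and 4 reads in GFP- cells, a 14.2-fold ratio with a counting interval of 5.30 to 53.8. The sign of the fitted difference was reversed by DESeq2 (0.28) and by leaving out model A (0.06), B (0.21) or D (0.10).

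Markers of pericytes and smooth muscle shared part of the order of Cdkn1c across models. Of the 5 genes of that list 3 were tested, all lower in GFP+ cells and none with an adjusted p under 0.05 by edgeR. The summed level of the list was 50.1, 100, 5.32, 231 and 22.7 CPM in GFP+ cells of models A to E, against 84.0, 178, 8.53, 267 and 13.9 CPM in GFP- cells. Models D, B and A were highest for both that sum and Cdkn1c. The fibroblast sum was also highest in models D, B and A in both populations. Model E was lowest for Cdkn1c, whereas model C was lowest for the pericyte and smooth muscle sum. In model C the GFP+ library was higher than the GFP- library for Cdkn1c and lower for that sum. Acta2 reached at most 181 CPM in a GFP+ library and 126 CPM in a GFP- library, Notch3 at most 36.9 CPM in GFP+ and 91.6 CPM in GFP-, and Rgs5 at most 16.8 CPM in GFP+ and 63.8 CPM in GFP-. The contractile markers Myh11 (at most 0.611 CPM in GFP+ and 12.2 CPM in GFP-) and Des (at most 0.494 CPM in GFP+ and 4.07 CPM in GFP-) were lower. The part of these markers in the Cdkn1c values was not tested. Of the 13 listed genes of the imprinted domain around Cdkn1c, 7 were tested, 4 higher and 3 lower, with 0 called by edgeR. Kcnq1ot1, the antisense noncoding RNA of that domain, was higher in 5 of 5 pairs (log2 0.32, SE 0.14; adjusted p = 0.549 by edgeR), and the growth factor gene Igf2 differed by 0.15 (SE 0.51).

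Among the INK4 genes, Cdkn2a was abundant in every library, and neither Cdkn2a nor its neighbour Cdkn2b differed between populations beyond the spread of the pairs. Cdkn2a (ENSMUSG00000044303, chromosome 4, 89274471 to 89294653) stood at 423, 491, 158, 518 and 537 CPM in GFP+ cells of models A to E, against 607, 518, 157, 487 and 524 CPM in GFP- cells. Model C was the lowest by far in both populations, and every other library held at least 423 CPM. The log2 difference was -0.13 (SE 0.11; adjusted p = 0.785 by edgeR). It came largely from model A, with a pair difference of -0.55, while the other pairs lay between -0.15 and 0.05; without model A the fitted difference was -0.03.

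Cdkn2b (ENSMUSG00000073802, chromosome 4, 89306299 to 89311039), which encodes p15, a target of TGF-beta signalling, stood at 67.1, 94.2, 26.6, 80.8 and 53.2 CPM in GFP+ cells of models A to E, against 63.9, 135, 27.1, 88.1 and 48.3 CPM in GFP- cells. Model C was again the lowest and model B the highest in both populations. The log2 difference was -0.13 (SE 0.11; adjusted p = 0.789 by edgeR), -0.0079 without model B, the pair with the largest difference (-0.58), and -0.21 without model E. Per length of exon, Cdkn2b ran at 0.0836 to 0.162 of the Cdkn2a level in GFP+ and 0.0777 to 0.219 in GFP- cells. Mtap, the metabolic enzyme gene beside this locus, stood at 116, 184, 101, 164 and 134 CPM in GFP+ cells of models A to E, against 140, 148, 84.0, 121 and 140 CPM in GFP- cells, and was lowest in model C as well, though by a smaller factor than Cdkn2a.

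Cdkn2c, which encodes p18, had model C at the other end of its range. This gene (ENSMUSG00000028551, chromosome 4, 109660876 to 109667189) stood at 41.3, 33.2, 108, 25.2 and 52.0 CPM in GFP+ cells of models A to E, against 46.7, 28.8, 76.9, 27.9 and 56.0 CPM in GFP- cells. Model C, the lowest for Cdkn2a and Cdkn2b, was the highest for Cdkn2c in both populations. Over the 10 libraries the Pearson correlation of log2 CPM was -0.925 between Cdkn2c and Cdkn2b, -0.742 between Cdkn2c and Cdkn2a, and 0.795 between Cdkn2a and Cdkn2b; these are descriptions, since the libraries are 5 pairs that share a tumour. Over all tested genes model C was the lowest of the 5 models in 26.5% and the highest in 27.5%. Between populations Cdkn2c differed by 0.03 (SE 0.11; adjusted p = 0.975 by edgeR), with a pair difference of 0.47 in model C and -0.20 to 0.14 in the others, and the sign turned without model C (-0.091) or B (-0.0019), while the difference was 0.081 without model D, 0.078 without A and 0.041 without E.

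Cdkn2d, which encodes the INK4 protein p19 and is distinct from ARF, was low and even. It had 95 to 201 reads per library and stood at 5.78, 10.7, 7.77, 7.40 and 7.43 CPM in GFP+ cells of models A to E, against 4.88, 8.83, 6.33, 8.70 and 5.53 CPM in GFP- cells. It was higher in GFP+ cells in 4 of 5 pairs, with a log2 difference of 0.17 (SE 0.15; adjusted p = 0.787 by edgeR), which was 0.28 without model D and 0.087 without model E. The counting interval of the ratio spanned 1 in 4 of 5 pairs, so most of these pair differences were not detectable at this depth.

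Cdkn3 (ENSMUSG00000037628, chromosome 14, 46760541 to 46771669), the CDK phosphatase gene, was the rarest of the set per length in 8 of 10 libraries. It stood at 3.39, 8.84, 1.79, 4.22 and 6.61 CPM in GFP+ cells of models A to E, against 5.71, 5.66, 2.04, 2.44 and 4.94 CPM in GFP- cells, from 33 to 166 reads. It was higher in GFP+ cells of models B, D and E and lower in A and C. The log2 difference was 0.17 (SE 0.25; adjusted p = 0.898 by edgeR), and ran from 0.03 without model D to 0.40 without model A.

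**Figure D2:**
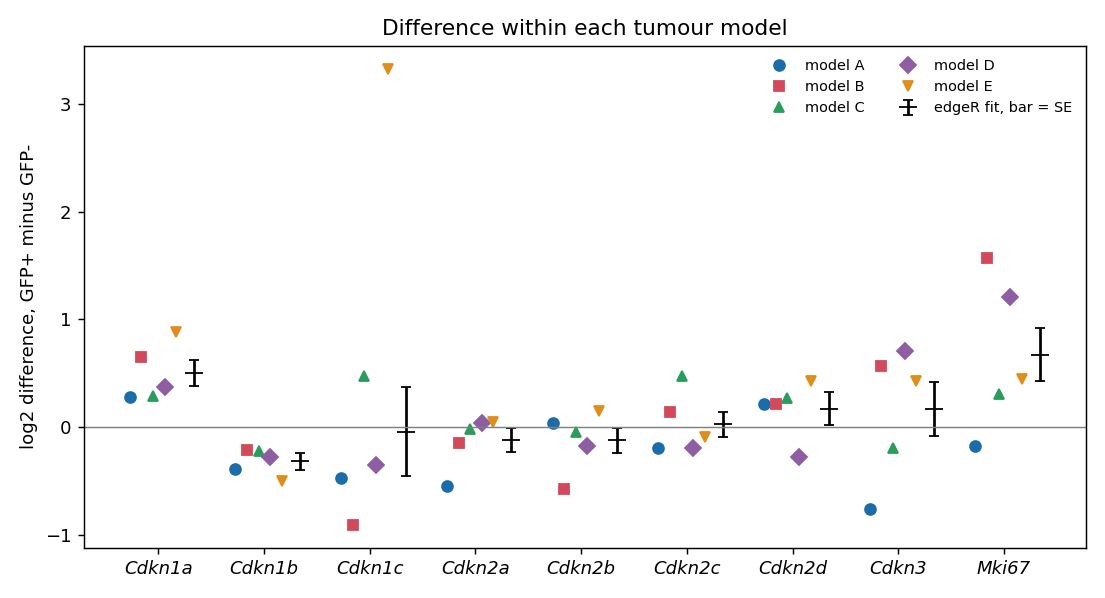
Log2 difference of each gene between GFP+ and GFP- cells in each tumour model (symbols A to E) and the edgeR fit over all pairs (black, bar = SE). All 5 symbols lie above 0 for Cdkn1a and below 0 for Cdkn1b, the model E symbol of Cdkn1c stands at 3.33, and Mki67 runs from -0.18 in model A to 1.57 in model B.

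Mki67, which encodes the Ki-67 protein of cycling cells, stood at 111, 203, 84.3, 132 and 125 CPM in GFP+ cells of models A to E, against 124, 65.1, 67.0, 54.7 and 92.4 CPM in GFP- cells. It was higher in GFP+ cells in 4 of 5 pairs and lower in A, and the size varied between log2 differences of 0.31 in model C and 1.57 in model B among those 4 pairs. The fitted difference was 0.67 (SE 0.25; adjusted p = 0.484 by edgeR), and lay between 0.44 without model B and 0.88 without model A, with 0.53 without model D. Cdkn1a and Cdkn3 lay on the same side as Mki67 in 4 of 5 pairs each, Cdkn1c, Cdkn2a, Cdkn2c and Cdkn2d in 3, and Cdkn1b and Cdkn2b in 1. The largest differences of Cdkn1a (0.88) and Cdkn1b (-0.50) were both in model E, where Mki67 differed by 0.45, and models B and D, with the largest Mki67 differences, had 0.65 and 0.37 for Cdkn1a and -0.21 and -0.28 for Cdkn1b.

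Set against Mki67 of the same library, which removes the library scaling, every member had a lower mean ratio in GFP+ cells. The ratio of Cdkn1b to Mki67 was 0.915, 0.380, 1.2, 0.747 and 0.747 in GFP+ cells of models A to E, against 1.05, 1.31, 1.74, 2.10 and 1.45 in GFP- cells. All 5 pairs were lower, by a mean log2 difference of -0.99 ± 0.65 (SD, n = 5 pairs; exact sign-flip permutation p = 0.062, two-sided, the smallest that 5 pairs allow; 0.167 adjusted over 8 members). The ratios of Cdkn2a (-0.80 ± 0.62) and of Cdkn3 (-0.52 ± 0.35) were also lower in 5 of 5 pairs, at the same exact p for n = 5. For Cdkn3 the model E difference was only -0.02. Of all tested genes, 21.6% had a lower ratio to Mki67 in 5 of 5 pairs and 80.6% in at least 4, so a lower ratio in most pairs is the usual case in these libraries. With Top2a in place of Mki67 the mean differences were further from 0 for every member, at -1.51 for Cdkn1b, -1.31 for Cdkn2a and -1.04 for Cdkn3.

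For the remaining members the ratio to Mki67 went both ways. Cdkn2b (-0.80 ± 0.96), Cdkn2c (-0.65 ± 0.75) and Cdkn2d (-0.50 ± 0.86) were lower relative to Mki67 in 4 of 5 pairs, with model A the exception for Cdkn2b and Cdkn2d and model C for Cdkn2c. The mean for Cdkn2b was -0.46 without model B, and that for Cdkn2d was -0.26 without model D and -0.29 without model B. Cdkn1c was lower in 3 of 5 pairs, from -2.48 in model B to 2.87 in model E, and its mean of -0.26 was 0.30 without B, 0.070 without D and -1.04 without E. Cdkn1a was lower in 3 of 5 pairs as well (mean -0.18 ± 0.67; exact p = 0.562 over 5 pairs): its ratio to Mki67 was 0.0997 to 0.262 in GFP+ cells and 0.153 to 0.265 in GFP- cells, with overlapping ranges. Without model B the mean was 0.0094, without model D -0.0091, without model A -0.34 and without model E -0.33.

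**Figure D3:**
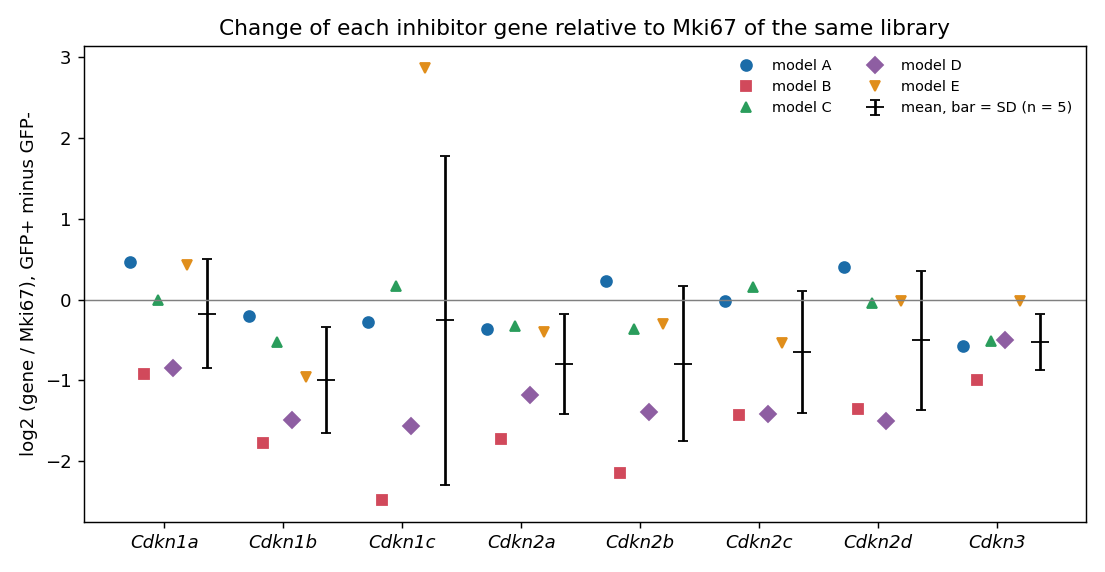
Change in the log2 ratio of each inhibitor gene to Mki67 of the same library, GFP+ minus GFP-, in each tumour model (symbols) with the mean and SD over 5 pairs (black). Cdkn1b, Cdkn2a and Cdkn3 lie below 0 in all 5 models, and the pairs of models B and D are the lowest for every member except Cdkn3.

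Per kilobase of exon, Cdkn2a made up most of the CDK inhibitor reads. Its share of the sum over the 8 genes was 77.1%, 73.6%, 57.2%, 67.2% and 82.7% in GFP+ cells of models A to E, against 81.8%, 68.5%, 60.2%, 62.4% and 82.4% in GFP- cells. The gene in the second place differed by model: Cdkn2b in A, B and E, Cdkn2c in C and Cdkn1c in D. The rank order of all 8 genes was the same in GFP+ and GFP- cells of each of the 5 models, and no 2 models had the same order. The summed level was 236 RPKM (CPM per kilobase of exon) in GFP+ and 223 RPKM in GFP- cells of model C, against 468 to 658 RPKM in GFP+ and 543 to 666 RPKM in GFP- cells of the other models. Shared exons of overlapping transcripts were counted once in the length.

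**Figure D4:**
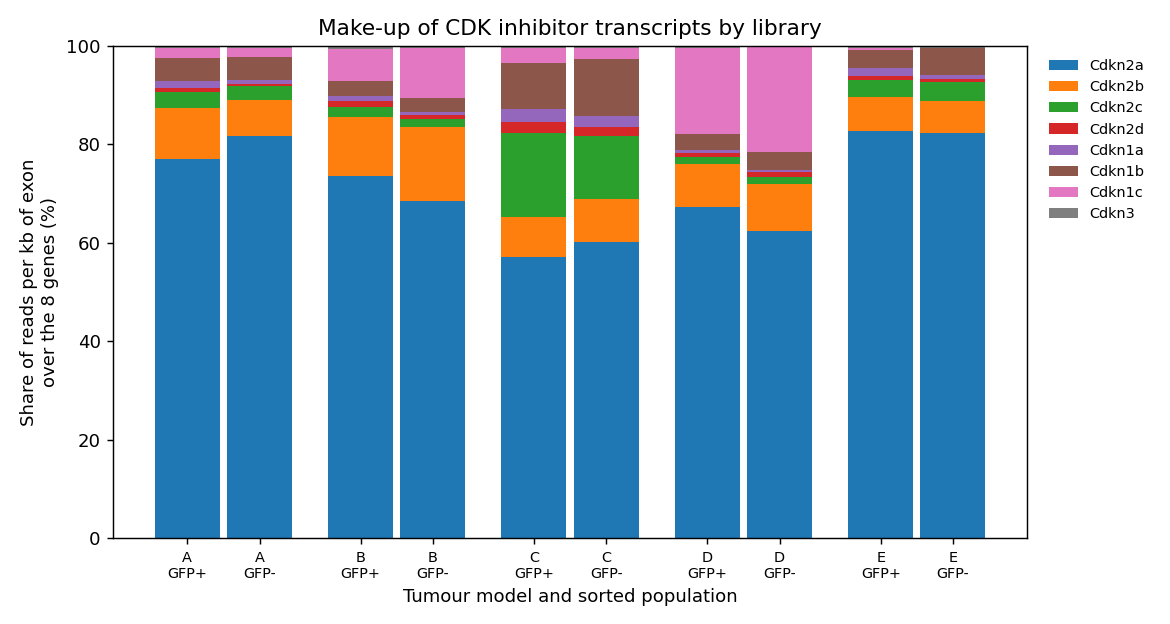
Share of reads per kilobase of exon taken by each of the 8 genes in every library (bars, % of their sum), GFP+ left of GFP- within each tumour model. Cdkn2a takes 57.2% to 82.7%, Cdkn2c is widest in model C and Cdkn1c in model D.

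Cdkn1c, Cdkn2a, Cdkn2b, Cdkn2c and Cdkn3 varied more over the tumour models than the median tested gene. The SD over the 5 models of the mean log2 CPM was 3.06 for Cdkn1c, a value reached by 0.229% of the 13986 tested genes. It was 0.76 for Cdkn2a, 0.78 for Cdkn2b, 0.71 for Cdkn2c and 0.72 for Cdkn3, each reached by at most 21.7% of genes, beside a median of 0.38 over all tested genes. Cdkn1a (0.35), Cdkn2d (0.32) and Cdkn1b (0.21) were below that median. A model has 1 library per population, so these spreads describe 5 tumours and carry no test. The median size of the pair difference was 0.37 for Cdkn1a and 0.28 for Cdkn1b, beside 0.22 over all tested genes and 0.05 for Cdkn2a. It was 0.57 for Cdkn3, 0.47 for Cdkn1c, 0.27 for Cdkn2d, 0.20 for Cdkn2c and 0.15 for Cdkn2b. An SD over models and a median pair difference are unlike measures, so the effects of model and population were not ranked.

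The genes most like each member over the 10 libraries, by the Pearson correlation of log2 CPM among 9542 genes with a mean over 10 CPM, are given as a description. Cdkn1a was most like Cdc45 (r = 0.937), a replication fork gene, and Dgkd (0.909), and Cdkn1b most like Stx18 (0.909) and the stress gene Sesn3 (0.904). Cdkn2c was most like Stk38 (0.986) and Stx16 (0.978), and Cdkn3 most like the kinesin gene Kif2a (0.970). Cdkn1c went with Ykt6 (0.977) and Samd14 (0.966), Cdkn2a with Babam2 (0.98) and Tmed2 (0.978), Cdkn2b with Fbln1 (0.987) and Erp29 (0.986), and Cdkn2d with Pafah1b1 (0.946) and Atp9a (0.925). Pairs of libraries share a tumour, so for members that differ by model these values rest on at most 5 tumours. Those of Cdkn2a largely set model C against the other models.

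The partners of the inhibitors were mostly higher in GFP+ cells, with 0 genes passing across all genes in any list. Of 15 CDK and cyclin genes 14 were tested, 10 higher and 4 lower, with a median log2 difference of 0.23, beside a median of -0.0028 over all tested genes. The mitotic kinase gene Cdk1 (0.81, SE 0.20; adjusted p = 0.372 by edgeR) and its partners Ccnb1 (1.09, SE 0.28) and Ccna2 (0.75, SE 0.21) were higher in 5 of 5 pairs, and Ccne2, a G1/S cyclin gene, differed by 0.77 (SE 0.30). Of 19 pocket protein and E2F genes, which act downstream of the INK4 proteins, 15 were higher and 4 lower (median 0.17). The repressor E2f8 (0.78, SE 0.15; adjusted p = 0.310 by edgeR), the pocket protein gene Rbl1 (0.54, SE 0.17) and Lin9 (0.52, SE 0.17) were higher in 5 of 5 pairs and Foxm1 (0.39, SE 0.13) in 4. All 12 proliferation markers were higher (median 0.71), with Prc1 (1.15, SE 0.20), Aurkb (1.18, SE 0.28), Top2a (1.18, SE 0.28) and Aurka (0.94, SE 0.23) at the smallest p.

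Genes that govern the inhibitors showed smaller medians. Of 19 genes of the p53 axis 13 were higher and 6 lower (median 0.02). The smallest p belonged to Gtse1 (1.08, SE 0.18), a G2 phase gene that holds p53 down, and to the stress gene Sesn2 (0.47, SE 0.11), both higher in 5 of 5 pairs, followed by the p53 inhibitor gene Mdm4 (-0.20, SE 0.09), lower in 5 of 5, and the receptor gene Eda2r (0.74, SE 0.34). Of 19 listed genes of p27 turnover and FOXO signalling 18 were tested, 10 higher and 8 lower (median 0.03). Txnip (-0.51, SE 0.13) and Foxo3 (-0.23, SE 0.09), a factor that activates Cdkn1b, were lower in 5 of 5 pairs, whereas Cks1b (0.28, SE 0.10), a cofactor of p27 degradation, and Dtl (0.57, SE 0.21), which marks p21 for degradation in S phase, were higher in 4 of 5. Of 25 regulators of the INK4 locus 15 were higher and 10 lower (median 0.04). The Polycomb genes Ezh2 (0.33, SE 0.13), Cbx7 (-0.39, SE 0.17) and Bmi1 (-0.21, SE 0.10) and the T-box gene Tbx3 (0.28, SE 0.15) had the smallest p, with Ezh2 higher in 5 of 5 pairs. None of these genes had an adjusted p under 0.05 by edgeR.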

How the data were processed

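The authors deposited unnormalised read counts for each gene, in 10 tables laid out like STAR's gene counts; STAR 2.4.2.8 and mm10 are named in the submitters' processing notes, with annotation, kit and strand choice not given in the sources used here. Counts of the second strand setting were taken (96.9% to 97.1% of stranded gene reads). The 4 summary lines (21.3% to 24.3% of reads, including 5.99% to 9.74% with several positions) were left out. Symbols, positions and exon lengths came from GENCODE vM21, which matched 46005 identifiers and left 512 unmatched. Opposite-strand reads were at most 1.36% at any member. No 2 libraries were identical.

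edgeR 4.0.16 (R 4.3.3) was fitted to all genes with TMM scaling, filterByExpr and the model as a block, as the design text states a paired comparison; calls were made two-sided at an adjusted p under 0.05, and standard errors were derived from F. The 2 libraries of a letter share a tumour model per the labels, and the correlation of their deviations from their population's mean was 0.628 to 0.867. Since the labels do not state separate animals, p-values measure the spread between these 5 pairs only. Pair differences and ratios used log2 CPM with a prior count of 2. Motif windows came from RefSeq, and the mismatch allowed in the p53 element was set after the Cdkn1a sequence was seen.

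Named were the 8 members and Mki67, up to 4 genes of smallest p per list, and the 2 genes most like each member, of which 1 is not reported here; Xist, Mtap and single marker genes were named after their values were seen. Members, lists, motifs and tests were chosen with earlier results of these data known. The pipeline was tested on simulated counts. Alternatives were no block, RLE, library totals, no filter, at least 1 CPM in 5 libraries, DESeq2 1.42.0, limma 3.58.1 voom, unstranded counts, each pair left out and, for ratios, Top2a, a marker list or a prior count of 0.5.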

Additional observations from a re-analysis of the deposited data

Results flagged for a closer look

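Cdkn2a in GFP- cells of model C, at 157 CPM, lay far from the other 4 GFP- libraries (gap over range 0.734, above Dixon's 95% critical value of 0.710 for 5 samples). In GFP+ cells model C was also the lowest, at 158 CPM. In all, 27 groups were checked, and chance alone flags about 1 in 20.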

How the results depend on the processing

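No member passed under any alternative except Cdkn1b with DESeq2 (-0.32, adjusted p = 0.0476). Cdkn1a and Cdkn1b kept their direction in all 13 alternatives, from 0.39 to 0.55 and from -0.35 to -0.29. The count of called genes was 47 with no filter and 190 with DESeq2, against 0 in the others; the cause was not tested. Without the replicate block 190 genes had an unadjusted p under 0.05, and between 793 and 1477 when a pair was left out, lowest without B and D (793 and 796). Leaving out the block changed no call of a member. The sign turned for Cdkn1c with DESeq2 (0.28; the cause was not tested) and when pairs were left out (-0.35 to 0.21), for Cdkn2c when pairs were left out (-0.091 to 0.081), and for the ratios to Mki67 of Cdkn1a (-0.34 to 0.0094) and Cdkn1c (-1.04 to 0.30), with fewer pairs in each. All other differences and ratios kept their direction. With Top2a in place of Mki67 all 8 ratios moved by over 1.5 times away from 0, to -0.69 for Cdkn1a, -1.51 for Cdkn1b, -0.77 for Cdkn1c, -1.31 for Cdkn2a and for Cdkn2b, -1.16 for Cdkn2c, -1.02 for Cdkn2d and -1.04 for Cdkn3. The fitted log2 difference was 1.18 for Top2a and 0.67 for Mki67. The change of reference therefore lowered all 8 ratios by the same amount and describes the reference, not the members. With 33 to 166 reads of Cdkn3 and 4 in 1 library of Cdkn1c, depth limits their pair differences.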
